A study of Homo sapiens with 23 samples.

Results

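The genes described here are 40 genes of the extracellular matrix and of the mesenchymal cell state, measured by RNAseq in HCT116 cells and in 4 *AGO* knockout lines made from them. They were taken from a list of symbols, drawn up with earlier results of these data known but with no threshold on their values, and make up 40 of the 57875 genes listed in each sample. The list holds 5 fibrillar collagens, 12 collagens, laminins, nidogens and proteoglycans of the basement membrane, 5 other collagens, 7 matrix glycoproteins and fibrillins, 9 enzymes and inhibitors that crosslink or degrade matrix, and the mesenchymal markers *CDH2* and *VIM*. The files name genes by Ensembl ID, and all 40 symbols were matched through GENCODE v44. After edgeR's filter on low counts 33 of the 40 were tested, among 22842 genes. The other 7, *COL5A1*, *COL4A2*, *NID1*, *NID2*, *FBN2*, *LOX* and *MMP2*, stayed at or under 0.393 counts per 1000000 (CPM) on average in every line.

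HCT116 is an established human colorectal carcinoma line. The groups were wild-type cells and cells with *AGO1*, *AGO2*, both *AGO1* and *AGO2* (*AGO1/2*), or *AGO1*, *AGO2* and *AGO3* (*AGO1/2/3*) knocked out by CRISPR gene editing, with 3 samples each, all grown in the same medium. The labels name no further treatment. Each knockout was a single line prepared by a commercial service, so that genotype and line cannot be told apart, and the same 3 wild-type samples entered every comparison with wild type. Fewer producing cells and less RNA per cell cannot be told apart in such bulk samples.

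The extracellular matrix is the network of secreted proteins that surrounds cells and carries signals to them. Epithelial cells rest on a basement membrane of type IV collagen, laminins, nidogens and the proteoglycans perlecan and agrin, whereas fibrillar collagens, fibronectin and their crosslinking enzymes are produced mainly by fibroblasts and other mesenchymal cells. Epithelial cells can gain mesenchymal genes such as *VIM*, *CDH2* and *FN1* and lose the adhesion molecule E-cadherin, in what is known as the epithelial-to-mesenchymal transition. AGO proteins carry microRNAs (miRNAs) to complementary sites in mRNAs, in most cases lowering mRNA levels, and the miR-29 family is known for sites in the 3′-untranslated regions (3′-UTRs) of many collagen mRNAs.

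The 3 mature miRNAs of the miR-29 family and sites for them in 8 of the 40 genes are shown because the genes are compared below by whether they hold such a site. The miRNA sequences are those of RefSeq, written 5′ to 3′, with the shared seed (bases 2 to 8) in capitals.
miR-29a-3p: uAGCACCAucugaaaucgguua
miR-29b-3p: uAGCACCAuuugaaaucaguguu
miR-29c-3p: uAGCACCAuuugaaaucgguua
The sites are the sense strand of the mRNA, 22 bases each, taken from hg38 at the 3′-UTR of the MANE Select transcript in GENCODE v44, and the 7 bases complementary to the seed, TGGTGCT, are in capitals.
COL1A1, chr17:50184572-50184593, minus strand: ggggagggaatcacTGGTGCTa
COL3A1, chr2:189012002-189012023, plus strand: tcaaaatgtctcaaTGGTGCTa
COL3A1, chr2:189012442-189012463, plus strand: aaagacgcatgttaTGGTGCTa
COL6A3, chr2:237324601-237324622, minus strand: atgacctatcagtaTGGTGCTa
COL7A1, chr3:48564322-48564343, minus strand: actgtccctcccctTGGTGCTa
LAMC1, chr1:183144239-183144260, plus strand: attatctgacacacTGGTGCTa
HSPG2, chr1:21822475-21822496, minus strand: cggacggatgccgcTGGTGCTc
SPARC, chr5:151661377-151661398, minus strand: gagattggcccattTGGTGCTg
LOXL4, chr10:98248554-98248575, minus strand: gtcccccatctaagTGGTGCTt
The site in *COL1A1*, both sites in *COL3A1*, and those shown for *COL6A3*, *COL7A1* and *LAMC1* were followed by an A, which makes a site of 8 bases, and those shown for *HSPG2*, *SPARC* and *LOXL4* were not. A match of these letters is a description of the sequence and was not tested as a binding site.

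Total counts per sample ranged from 27709971 to 45271146, and the *AGO2* knockout samples were at 40419152 or more. The file headers of the *AGO2* knockout samples name another quantification mode than those of the other lines, so that mode and genotype cannot be told apart. *AGO1* mRNA was lower in the *AGO1*, *AGO1/2* and *AGO1/2/3* knockout samples, with log2 fold changes of -1.89, -1.84 and -2.01. *AGO3* mRNA was lower in *AGO1/2/3* knockout samples, at -1.12. *AGO2* mRNA was lower in *AGO2* knockout samples at -0.51, not called in *AGO1/2* at -0.26 (adjusted p = 0.0924), and called higher in *AGO1/2/3* at 0.40. An edit can leave its mRNA in place, and protein was not measured in these files. The study's methods and text describe a check of the knockout lines by DNA sequencing and by western blot of the targeted proteins, which is the ground for the *AGO2* part of each label here. Of the epithelial markers 10 of 12 were at 1 CPM or more in every line, with *VIL1* and *GPA33* below, and 0 of 10 fibroblast markers reached 1 CPM on average in any line. Among the 29 genes of the list at 1 CPM or more in wild-type cells, wild-type sample 2 differed 2-fold or more from the mean of the other two wild-type samples for 4 genes, more than any other library.

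In wild-type cells, 29 of the 40 genes had a mean of 1 CPM or more, and the same number reached it in at least 1 line. Compared per length, as CPM per kilobase (kb) of annotated exon, the highest levels in wild-type cells were those of *TIMP1*, an inhibitor of metalloproteinases, at 45.4 CPM per kb, and of the laminin chains *LAMA5* at 20.3 and *LAMC1* at 17.4. *TIMP2* at 16.2, *LAMB3* at 15.3, *COL6A1* at 14.2 and *COL6A2* at 12.8 CPM per kb followed. *LAMA5*, *LAMB1* and *LAMC1* encode the 3 chains of laminin-511, a main laminin of epithelial basement membranes. Mesenchymal and fibrillar genes stood much lower, with *COL1A1* at 2.66, *FN1* at 0.878, *VIM* at 0.808, *SPARC* at 0.364 and *COL1A2* at 0.195 CPM per kb. The basement membrane collagens *COL4A1* and *COL4A2* were at 0.00985 and 0.00486 CPM per kb. In *AGO1/2/3* knockout cells the order was different at its upper end, with *TIMP2* at 50.5, *TIMP1* at 39.5, *COL6A1* at 33.9, *LAMC1* at 27.9 and *LOXL2* at 22.0 CPM per kb, and *SPARC* reached 11.3 and *VIM* 10.1.

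**Figure D1:**
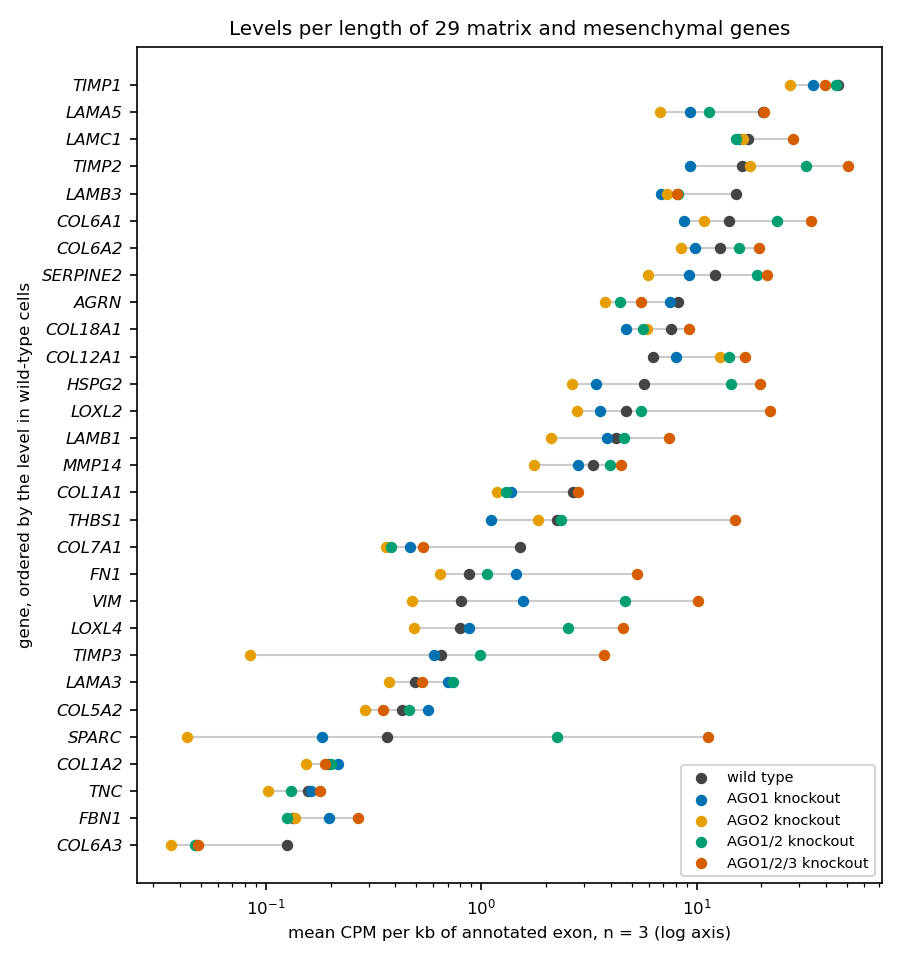
Mean CPM per kb of annotated exon (log axis, n = 3 per line) for the 29 genes with a mean of 1 CPM or more in wild-type cells, ordered by that level, with 1 point for each line. The widest spans are those of *SPARC*, from 0.0429 in *AGO2* to 11.3 in *AGO1/2/3* knockout cells, and *TIMP3*, from 0.085 to 3.72.

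More of the genes were called lower than higher in the *AGO2* line, and more higher than lower in the *AGO1/2/3* line. In *AGO2* knockout cells 17 of the 40 genes were called lower and 1 higher than in wild-type cells. In the *AGO1/2/3* line 18 were called higher and 3 lower. The *AGO1* line had 3 genes called higher and 6 lower, and the *AGO1/2* line 7 higher and 5 lower. A gene was called at an adjusted p at or under 0.05, from the quasi-likelihood test of edgeR with Benjamini-Hochberg adjustment over all 22842 genes. Among all genes tested, 3.17% were called higher and 5.5% lower in the *AGO1* line, 8.55% and 10.8% in the *AGO2* line, 8.37% and 8.35% in the *AGO1/2* line, and 20.3% and 19.8% in the *AGO1/2/3* line. For the 33 listed genes that were tested, the same shares were 9.1% and 18.2%, 3.0% and 51.5%, 21.2% and 15.2%, and 54.5% and 9.1%. In the same order, the medians of the log2 fold change over the 33 genes were -0.37, -0.75, 0.22 and 0.82, beside -0.01, -0.02, 0.01 and -0.01 for all genes tested. The 3 samples of a line lay wholly above wild type for 4, 1, 8 and 19 of the 33 genes, beside 10.2%, 18.5%, 15.5% and 26.3% of all genes tested, and wholly below for 8, 22, 6 and 3, beside 12.9%, 18.6%, 14.3% and 23.8%. These counts are descriptive, since a gene at a low level can pass the filter through the line in which it is high.

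**Figure D2:**
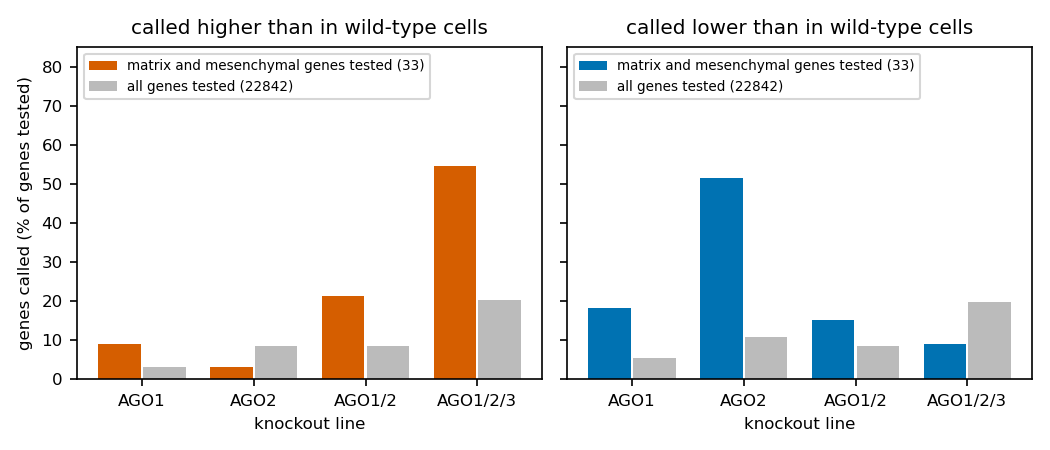
Share of genes called higher (left) or lower (right) than in wild-type cells in each knockout line, as a percentage of the genes tested, for the 33 matrix and mesenchymal genes tested (coloured bars) and for all 22842 genes tested (grey bars). The coloured bar stands highest above the grey one for genes called higher in *AGO1/2/3* (54.5% against 20.3%) and for genes called lower in *AGO2* knockout cells (51.5% against 10.8%).

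Of the 33 genes tested, 28 were called in at least 1 line. The 5 called in none were *COL1A2*, *COL4A1*, *LAMA3*, *LAMB3* and *TNC*. Of the 28, 8 were called higher in at least 1 line and lower in none, 10 lower and never higher, and 10 higher in 1 line and lower in another. *COL7A1* was the only gene of the list called lower in all 4 lines, and 0 were called higher in all 4. The genes called lower in *AGO2* and higher in *AGO1/2/3* knockout cells were 8, namely *LAMB1*, *HSPG2*, *COL6A2*, *SPARC*, *TGFBI*, *TIMP3*, *SERPINE2* and *VIM*. In the combined knockouts, both the double and the triple one, 7 genes were called higher, namely *HSPG2*, *COL6A1*, *COL12A1*, *SPARC*, *LOXL4*, *TIMP2* and *VIM*. Shares of all genes tested with the same patterns across lines are not given here, so these counts describe the list alone. Calls that 1 library decides are given with each gene below.

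**Figure D3:**
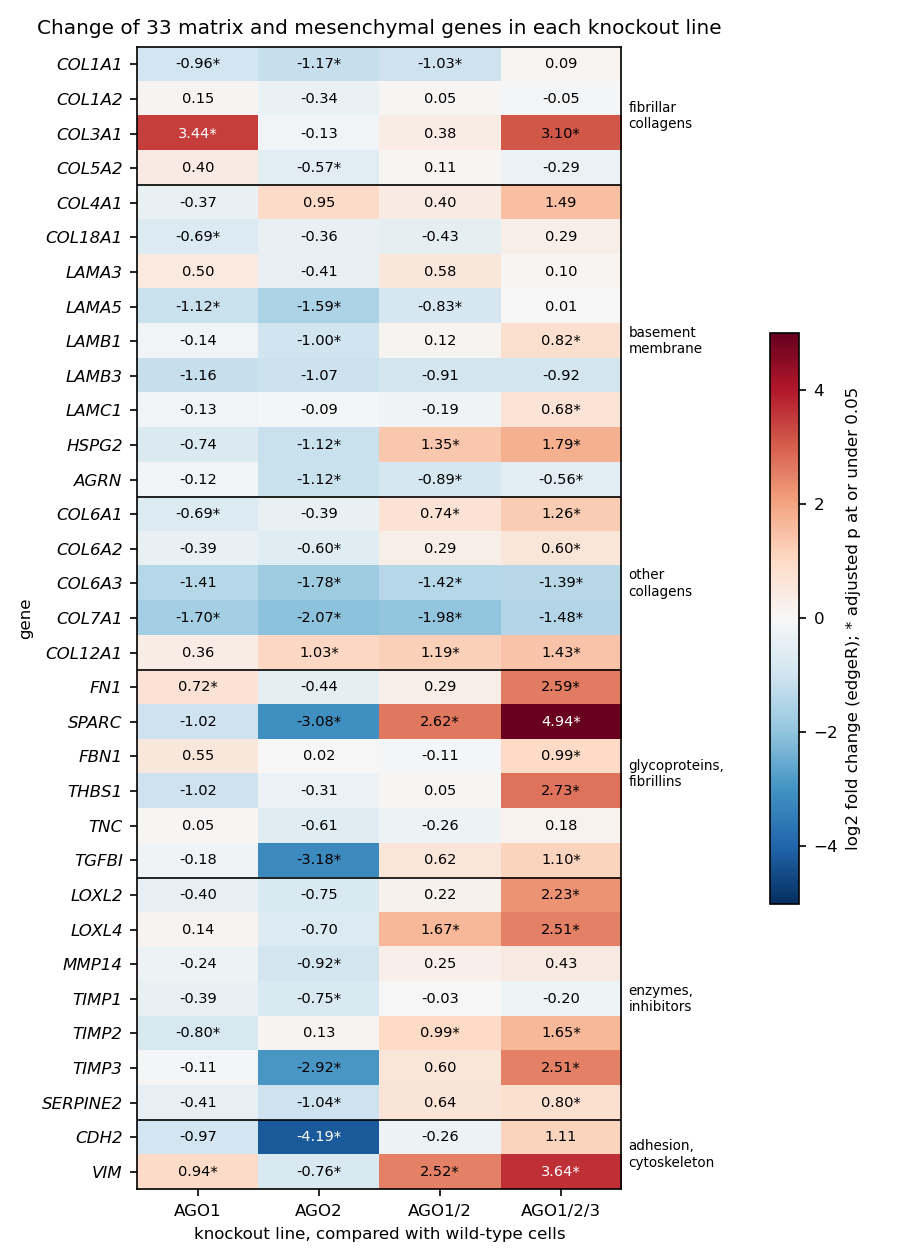
Log2 fold change of the 33 genes tested (rows, grouped by role) in each knockout line compared with wild-type cells (columns), coloured from blue (lower) to red (higher), with an asterisk where the adjusted p of edgeR's test was at or under 0.05. The *AGO2* column is mostly blue and the *AGO1/2/3* column mostly red, and *COL7A1* is lower throughout.

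Fibrillar collagens form the tensile fibres of connective tissue. *COL1A1*, which encodes the alpha-1 chain of type I collagen (chromosome 17, 50184101 to 50201632; positions are from GENCODE v44 on hg38), was lower in 3 of the 4 lines. It was at 24.1, 27.5 and 20.2 CPM in the wild-type samples, 10.6, 11 and 15.4 in *AGO1*, 10.8, 9.63 and 11.4 in *AGO2* and 13.6, 12 and 9.58 in *AGO1/2* knockout samples. In *AGO1/2/3* knockout samples it was at 26.7, 23.8 and 25.9 CPM, overlapping the wild-type samples, whereas the other 3 lines lay wholly below them. Its log2 fold change was -0.96 (SE 0.16, adjusted p = 0.00181) in *AGO1*, -1.17 (SE 0.16, adjusted p = 0.000454) in *AGO2*, -1.03 (SE 0.16, adjusted p = 0.000458) in *AGO1/2* and 0.09 (SE 0.16, adjusted p = 0.695) in *AGO1/2/3* knockout cells. Compared directly, *COL1A1* was higher in *AGO1/2/3* than in *AGO1/2* knockout cells by 1.12 (SE 0.16, adjusted p = 0.000147) on the log2 scale.

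*COL1A2*, which encodes the partner chain of type I collagen, did not follow *COL1A1*. It stayed between 1.57 and 2.58 CPM in all 15 samples, and its log2 fold changes of -0.34 to 0.15 were not called. *COL3A1*, the chain of type III collagen, was at 3, 1 and 1 counts in the wild-type samples, at the floor of 3 counts per library below which a level was not read. It had 17, 10 and 27 counts in *AGO1* and 19, 13 and 14 in *AGO1/2/3* knockout samples and was called higher in both, at least 6.41-fold and 5.05-fold higher than that floor, though at 0.598 and 0.472 CPM the level remained low. *COL5A2*, a chain of type V collagen, was at 2.11 to 4.16 CPM on average across the lines and was called in *AGO2* knockout cells alone, at -0.57 (SE 0.18, adjusted p = 0.0377), a call lost in each of the 6 fits without 1 of the *AGO2* or wild-type samples (-0.51 to -0.65). *COL5A1* did not pass the filter.

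Among the 12 genes of the basement membrane, 9 were tested. None was called higher in *AGO1* or *AGO2* knockout cells, 1 in *AGO1/2* and 3 in *AGO1/2/3* knockout cells, while 2, 4, 2 and 1 were called lower. Of all genes tested, 3.17%, 8.55%, 8.37% and 20.3% were called higher in these lines. The shares called lower were 5.5%, 10.8%, 8.35% and 19.8%, and with 9 genes each count rests on few. The laminins moved separately. *LAMA5*, the alpha chain of laminin-511 (chromosome 20, 62307955 to 62367312), was at 237.8, 403.1 and 228 CPM in the wild-type samples, 92.9, 126.2 and 181 in *AGO1* and 108.8, 89.5 and 90.7 in *AGO2* knockout samples. It was at 135.8, 184.4 and 170 in the double and 339.7, 275.7 and 261.8 in the triple knockout samples. The first 3 knockout lines lay below every wild-type sample and the last overlapped them. Against wild type its log2 fold change was -1.12 (SE 0.24, adjusted p = 0.00869), -1.59 (SE 0.24, adjusted p = 0.000964), -0.83 (SE 0.24, adjusted p = 0.0256) and 0.01 (SE 0.23, adjusted p = 0.971) in the same order. Without wild-type sample 2 the value in *AGO1/2* knockout cells was -0.53 and not called (adjusted p = 0.109), and it was also not called without *AGO1/2* sample 1 (-0.73, adjusted p = 0.0905) or sample 3 (-0.86, adjusted p = 0.0557). In fits of only the 6 samples compared, the calls in *AGO1* (-1.12, adjusted p = 0.0866) and *AGO1/2* (-0.85, adjusted p = 0.0558) were lost.

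*LAMB1*, the beta chain of the same laminin, was lower in *AGO2* and higher in *AGO1/2/3* knockout cells. It was at 66.1, 92.2 and 78.1 CPM in wild type, 55.4, 65.5 and 93.1 in the *AGO1* line and 45.6, 33.9 and 38.5 in the *AGO2* line. In the double knockout it was at 69.6, 92.8 and 94.7, and in *AGO1/2/3* samples 149, 139.2 and 128.6. The *AGO2* samples lay wholly below and the *AGO1/2/3* samples wholly above the wild-type samples. On the log2 scale the difference from wild type was -1.0 (SE 0.19, adjusted p = 0.00335) in *AGO2* and 0.82 (SE 0.18, adjusted p = 0.00224) in *AGO1/2/3* knockout cells, and -0.14 and 0.12 in *AGO1* and *AGO1/2* knockout cells, neither called. *LAMC1*, the gamma chain shared by most laminins (chromosome 1, 183023420 to 183145592), was called in the triple knockout alone. It was at 122.1, 168.7 and 150.3 CPM in wild type, 120.3, 132.8 and 148.7 with *AGO1* and 130.8, 139.9 and 143.9 with *AGO2* knocked out. The *AGO1/2* samples were at 114, 141 and 130.3 and the *AGO1/2/3* samples at 215.7, 234.9 and 257.5, the last above all other 12 samples. Its log2 fold change in *AGO1/2/3* knockout cells was 0.68 (SE 0.13, adjusted p = 0.000479), and between -0.19 and -0.09 in the other lines.

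The chains of laminin-332, *LAMA3* and *LAMB3*, were called in no line. *LAMB3* had values of -1.16, -1.07, -0.91 and -0.92 on the log2 scale (single knockouts first, then the double and the triple one), with adjusted p from 0.0775 to 0.155. Its wild-type samples spread widely, at 40.1, 134.7 and 39.1 CPM, with sample 2 far above the others. Without wild-type sample 2 the values were -0.32, -0.25, -0.08 and -0.10 in the same order, with none called. Without wild-type sample 3 it was called lower in *AGO1* (-1.46), *AGO2* (-1.39) and *AGO1/2/3* (-1.24), and without sample 1 in *AGO2* (-1.38) and *AGO1/2/3* (-1.23). It was also called lower in *AGO1* without *AGO1* sample 3 (-1.61). *LAMA3*, at log2 fold changes of -0.41 to 0.58, was called higher in *AGO1/2* without *AGO1/2* sample 3 (0.76) or wild-type sample 2 (0.77), and with no filter on low counts (0.57).

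*HSPG2*, which encodes the basement membrane proteoglycan perlecan (chromosome 1, 21822244 to 21937310), was lower in *AGO2* knockout cells and higher in both lines that lack *AGO1* and *AGO2* together. It was at 85.2, 125 and 99.5 CPM in wild type, 43.3, 52.7 and 89.7 in *AGO1* and 61, 34.5 and 47.3 in *AGO2* knockout samples. It was at 186.9, 302.7 and 299.2 CPM in *AGO1/2* and 402.2, 341.1 and 324.6 in *AGO1/2/3* knockout samples, all above the highest wild-type sample. Relative to wild type the log2 fold change was -0.74 (SE 0.26, adjusted p = 0.103) in *AGO1*, -1.12 (SE 0.27, adjusted p = 0.0124) in *AGO2*, 1.35 (SE 0.27, adjusted p = 0.00264) in *AGO1/2* and 1.79 (SE 0.27, adjusted p = 8.05e-05) in *AGO1/2/3* knockout cells. Without *AGO2* sample 2 the value in *AGO2* knockout cells was -0.94 and not called (adjusted p = 0.0588), and without *AGO1* sample 3 the value in *AGO1* knockout cells was -1.09 and called lower (adjusted p = 0.0147).

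*AGRN*, which encodes agrin, the other large proteoglycan of the list, went the opposite way from *HSPG2* in the combined knockouts. It was at 88.9, 82.7 and 91.7 CPM in wild type, 66, 76.1 and 100.5 in *AGO1* and 41.1, 39 and 40.8 in *AGO2* knockout samples. It was at 55.6, 49 and 37.7 in the double and 74.4, 50.6 and 53.4 in the triple knockout samples. The last 3 lines lay wholly below the wild-type samples, and *AGO1* overlapped them. Its log2 fold change was -1.12 (SE 0.17, adjusted p = 0.0011) in *AGO2*, -0.89 (SE 0.17, adjusted p = 0.00235) in *AGO1/2*, -0.56 (SE 0.17, adjusted p = 0.0162) in *AGO1/2/3* and -0.12 in *AGO1* knockout cells. The call in *AGO1/2/3* was lost without *AGO1/2/3* sample 2 (-0.47, adjusted p = 0.0672) or sample 3 (-0.53, adjusted p = 0.0533). *COL18A1*, whose product carries endostatin, was called lower in *AGO1* knockout cells, at -0.69 (SE 0.15, adjusted p = 0.00778), and lost that call without *AGO1* sample 2 (-0.62, adjusted p = 0.0501). In *AGO1/2* knockout cells it was at -0.43 (SE 0.14, adjusted p = 0.055), and 12 of 24 alternatives called it lower.

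*COL4A1* and *COL4A2*, the type IV collagen chains found in nearly all basement membranes, were nearly silent in this line. *COL4A1* had 8, 1 and 5 counts in the wild-type samples, 6, 2 and 2 in the *AGO1* line and 8, 18 and 10 in the *AGO2* line. In *AGO1/2* knockout samples it held 13, 4 and 0 counts, and in *AGO1/2/3* samples 6, 10 and 23. Its log2 fold change of 1.49 (SE 0.79, adjusted p = 0.151) in *AGO1/2/3* knockout cells was not called, nor were those in the other lines. *COL4A2*, its neighbour transcribed from the opposite strand, had 5, 2 and 2 counts in wild-type and 6, 9 and 15 in *AGO1/2/3* knockout samples and did not pass the filter. The *AGO1* line held 1, 1 and 0 counts of it, the *AGO2* line held 1, 1 and 1, and the double knockout held 7, 5 and 1. The nidogens *NID1* and *NID2*, which link laminin to type IV collagen, had 8 counts or fewer in every sample. *COL4A2*, *NID1* and *NID2* were not tested, and a change in them could not be read at this depth. *COL4A1* was tested and not called, on 23 counts or fewer per sample. The remaining type IV collagen chains, which are not among the 40 genes and are named here after their values were seen, were expressed. *COL4A3* was at 12.6, 12.4 and 11.4 CPM and *COL4A4* at 16.1, 15.6 and 17.6 in the wild-type samples. *COL4A5* was at 32.9, 38.2 and 32.0 CPM in wild type and at 111.4, 127.1 and 174.7 in the *AGO1* line, a log2 fold change of 2.0 (SE 0.18, adjusted p = 7.05e-06). *COL4A6* was at 3.10, 2.77 and 3.32 CPM in wild type and at 12.3, 17.5 and 19.1 in the *AGO1* line, a change of 2.41 (SE 0.20, adjusted p = 2.04e-06). Both were called lower in the *AGO2* line, at -0.73 and -0.81. In *AGO1/2* knockout samples *COL4A5* was at 20.2, 28.3 and 25.9 CPM and *COL4A6* at 0.929, 1.24 and 1.07, below every wild-type sample. In *AGO1/2/3* samples *COL4A5* was at 55.7, 46.9 and 42.6, above wild type, and *COL4A6* at 1.84, 2.28 and 1.86, below it.

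The other collagens went in both directions. Type VI collagen forms beaded filaments at the border of the basement membrane from 3 chains. *COL6A1* (chromosome 21, 45981770 to 46005050) was at 64.9, 88.4 and 82.1 CPM in wild type, 39, 40 and 66.4 with *AGO1* and 65.2, 53.7 and 60.7 with *AGO2* knocked out. The *AGO1/2* samples were at 113.5, 147.4 and 132.3 and the *AGO1/2/3* samples at 201.2, 179.3 and 182.8. Both combined knockouts lay wholly above the wild-type samples. Against wild type its log2 fold change was -0.69 (SE 0.18, adjusted p = 0.0262) in *AGO1*, -0.39 (SE 0.18, adjusted p = 0.134) in *AGO2*, 0.74 (SE 0.18, adjusted p = 0.0102) in *AGO1/2* and 1.26 (SE 0.18, adjusted p = 5.34e-05) in *AGO1/2/3* knockout cells. The call in *AGO1* was lost without *AGO1* sample 1 (-0.56, adjusted p = 0.116), *AGO1* sample 2 (-0.56, adjusted p = 0.134), wild-type sample 2 (-0.60, adjusted p = 0.0698) or wild-type sample 3 (-0.66, adjusted p = 0.0597). That in *AGO1/2* was lost without *AGO1/2* sample 2 (0.63, adjusted p = 0.0528) or wild-type sample 1 (0.61, adjusted p = 0.0522). *COL6A2*, which lies near *COL6A1* on chromosome 21, was called lower in *AGO2* at -0.60 (SE 0.17, adjusted p = 0.0254) and higher in *AGO1/2/3* knockout cells at 0.60 (SE 0.17, adjusted p = 0.0105). The first call was lost without *AGO2* sample 2 (-0.49, adjusted p = 0.103), *AGO2* sample 3 (-0.62, adjusted p = 0.0671) or wild-type sample 2 (-0.55, adjusted p = 0.0748), and the second without *AGO1/2/3* sample 1 (0.47, adjusted p = 0.0607) or wild-type sample 1 (0.49, adjusted p = 0.0567).

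*COL6A3*, the third chain, was far lower in level, and its calls depended on wild-type sample 2. It was at 1.41, 5.45 and 1.27 CPM in wild type, 0.809, 1.24 and 1.0 in *AGO1* and 0.896, 0.718 and 0.735 in *AGO2* knockout samples. It was at 0.801, 1.24 and 0.995 in the double and 0.74, 1.4 and 0.983 in the triple knockout samples. Apart from wild-type sample 2, all 14 samples lay between 0.718 and 1.41 CPM. The log2 fold changes of -1.78 (SE 0.45, adjusted p = 0.0166) in *AGO2*, -1.42 (SE 0.46, adjusted p = 0.0462) in *AGO1/2* and -1.39 (SE 0.45, adjusted p = 0.0228) in *AGO1/2/3* knockout cells were called lower. Without wild-type sample 2 they were -0.79 (adjusted p = 0.0863), -0.42 (adjusted p = 0.366) and -0.41 (adjusted p = 0.268), and none was called. The call in *AGO1/2* was lost under 15 of the 24 alternatives, among them 13 of the 15 fits without 1 library. That in *AGO2* was also lost without *AGO2* sample 2 (-1.73, adjusted p = 0.0664) or sample 3 (-1.76, adjusted p = 0.0572), and that in *AGO1/2/3* without *AGO1/2/3* sample 1 (-1.20, adjusted p = 0.0878) or sample 3 (-1.41, adjusted p = 0.0582).

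*COL7A1*, which forms the anchoring fibrils that hold epithelium to the tissue below (chromosome 3, 48564073 to 48595329), was lower in every knockout line. It was at 10.9, 25.6 and 14.1 CPM in wild type, 3.24, 4.6 and 7.74 in the *AGO1* line and 4.28, 3.08 and 4.71 in the *AGO2* line. In the double knockout it was at 4.45, 5.21 and 3.13, and in *AGO1/2/3* samples 7.99, 4.41 and 5.56, so that all 12 knockout samples lay below the lowest wild-type sample. On the log2 scale the difference from wild type was -1.70 (SE 0.35, adjusted p = 0.00656) in *AGO1*, -2.07 (SE 0.35, adjusted p = 0.00195) in *AGO2*, -1.98 (SE 0.35, adjusted p = 0.00119) in *AGO1/2* and -1.48 (SE 0.34, adjusted p = 0.00262) in *AGO1/2/3* knockout cells, that is 3.25-fold, 4.19-fold, 3.94-fold and 2.8-fold lower. Each call held in all 15 fits that left out 1 sample, with log2 values from -2.32 to -1.08. The call in *AGO1* was lost in the fit of only the 6 samples compared (-1.70, adjusted p = 0.0587). *COL12A1*, a collagen that binds along fibrils, was the only gene of the list called higher in *AGO2* knockout cells. It was at 135.5, 90.2 and 128.2 CPM in wild type, 176.7, 154.1 and 122.8 with *AGO1* and 157.6, 320.9 and 244.8 with *AGO2* knocked out. The *AGO1/2* samples were at 317.5, 244.7 and 243 and the *AGO1/2/3* samples at 251.6, 313.2 and 386.1. The last 3 lines lay wholly above wild type, at log2 fold changes of 1.03 (SE 0.24, adjusted p = 0.0103), 1.19 (SE 0.24, adjusted p = 0.00293) and 1.43 (SE 0.24, adjusted p = 0.000213). The call in *AGO2* was lost without *AGO2* sample 2 (0.75, adjusted p = 0.0737) or wild-type sample 2 (0.84, adjusted p = 0.0544).

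**Figure D4:**
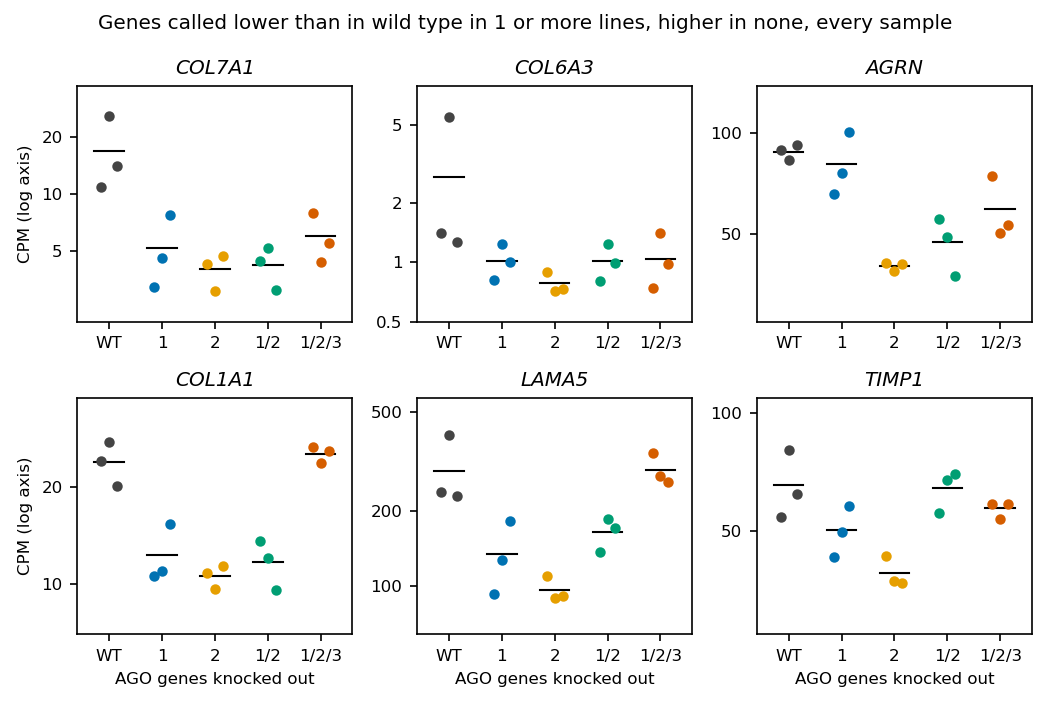
CPM in every sample (points, log axis) with the mean of each line (bar, n = 3) for *COL7A1*, *COL6A3*, *AGRN*, *COL1A1*, *LAMA5* and *TIMP1*, in wild-type cells and the 4 knockout lines named by the *AGO* genes knocked out. *COL7A1* is low in all 4 lines, *COL1A1* and *LAMA5* stand at the wild-type level in *AGO1/2/3* knockout cells, and wild-type sample 2 of *COL6A3* stands apart at 5.45 CPM.

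The matrix glycoproteins were mostly higher in the triple knockout. Of the 7 genes, 6 were tested, and 5 of these, all but *TNC*, were called higher in *AGO1/2/3* knockout cells and 0 lower. Beside them stood 20.3% called higher and 19.8% lower of all genes tested. The median log2 fold change was 1.85 over the 6. *SPARC*, a secreted protein that binds collagen (chromosome 5, 151661096 to 151686975), was at 1.44, 1.24 and 2.38 CPM in wild type, 0.467, 1.21 and 0.867 in *AGO1* and 0.246, 0.0463 and 0.304 in *AGO2* knockout samples. It was at 3.71, 12.3 and 15.3 CPM in *AGO1/2* and 53, 52.7 and 51.1 in *AGO1/2/3* knockout samples. None of the lines overlapped wild type, the single knockouts lying below and the combined knockouts above. Relative to wild type the log2 fold change was -1.02 (SE 0.53, adjusted p = 0.279) in *AGO1*, -3.08 (SE 0.64, adjusted p = 0.00615) in *AGO2*, 2.62 (SE 0.43, adjusted p = 0.000664) in *AGO1/2* and 4.94 (SE 0.45, adjusted p = 5.39e-07) in *AGO1/2/3* knockout cells, the last 2 corresponding to 6.14-fold and 30.8-fold higher. The 3 *AGO2* samples held 11, 2 and 12 counts, and the 3 *AGO1/2* samples spread from 3.71 to 15.3 CPM.

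*FN1*, fibronectin, a glycoprotein that joins collagen to cell receptors (chromosome 2, 215360440 to 215436073), rose mainly in the triple knockout. It was at 15.2, 14.6 and 15.6 CPM in wild type, 20.9, 25.2 and 28.5 in *AGO1* and 13.6, 8.43 and 11.3 in *AGO2* knockout samples. It was at 17.8, 18.5 and 19 in the double and 102, 85.6 and 86.1 in the triple knockout samples. The wild-type samples varied little, and the *AGO1*, *AGO1/2* and *AGO1/2/3* samples lay above and the *AGO2* samples below all of them. Its log2 fold change was 0.72 (SE 0.15, adjusted p = 0.00798) in *AGO1*, -0.44 (SE 0.15, adjusted p = 0.0538) in *AGO2*, 0.29 (SE 0.15, adjusted p = 0.23) in *AGO1/2* and 2.59 (SE 0.16, adjusted p = 9.74e-09) in *AGO1/2/3* knockout cells, 6.03-fold higher in the last. The value in *AGO2* lay just above the threshold, and 6 of 23 alternatives called it lower, among them the fit without *AGO2* sample 1 (-0.64, adjusted p = 0.015).

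*THBS1*, thrombospondin-1, a glycoprotein that activates TGF-beta, was called in the triple knockout alone. It was at 30.1, 11.9 and 20.3 CPM in wild type, 10.5, 9.83 and 10.3 in the *AGO1* line and 10.4, 25 and 14.8 in the *AGO2* line. In *AGO1/2* knockout samples it was at 30, 16.6 and 17.9, and in *AGO1/2/3* samples 80.7, 148.5 and 183.2. The triple knockout samples lay above all others, but differed among themselves by more than those of *FN1* or *SPARC*. Against wild type its log2 fold change was 2.73 (SE 0.38, adjusted p = 3.84e-05) in *AGO1/2/3* and -1.02 (SE 0.37, adjusted p = 0.11) in *AGO1* knockout cells, and -0.31 and 0.05 in the other lines. Without wild-type sample 2 the value in *AGO1* was -1.30 and called lower (adjusted p = 0.0418).

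*FBN1*, the microfibril protein fibrillin-1, was at 2.31 to 3.63 CPM on average in the other lines and at 4.95 ± 0.954 CPM (SD, n = 3) in *AGO1/2/3* knockout cells, a log2 fold change of 0.99 (SE 0.27, adjusted p = 0.00877). *TGFBI*, a matrix protein induced by TGF-beta, was under 1 CPM on average in every line. It was called lower in *AGO2* knockout cells, where the samples held 2, 4 and 0 counts beside 12, 15 and 17 in wild type, and higher in *AGO1/2/3* knockout cells at 1.10 (SE 0.36, adjusted p = 0.0236). The latter call was lost without *AGO1/2/3* sample 3 (0.82, adjusted p = 0.127) or wild-type sample 1 (0.96, adjusted p = 0.0868). *TNC*, tenascin-C, was at 0.978 to 1.70 CPM on average and was not called, though without wild-type sample 3 it was called lower in *AGO2* (-0.89, adjusted p = 0.0216). *FBN2* did not pass the filter.

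**Figure D5:**
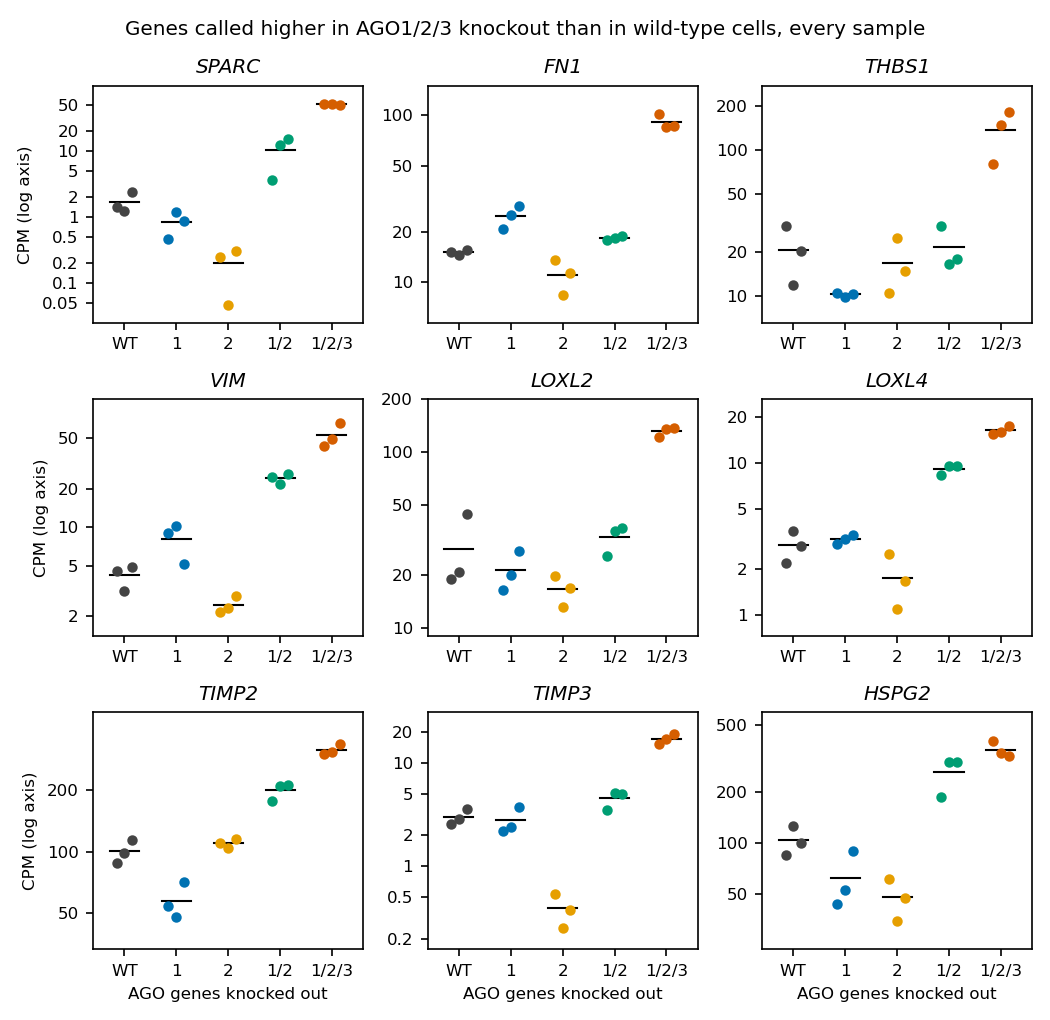
CPM in every sample (points, log axis) with the mean of each line (bar, n = 3) for 9 genes called higher in *AGO1/2/3* knockout cells, in wild-type cells and the 4 knockout lines named by the *AGO* genes knocked out. In each panel the 3 *AGO1/2/3* samples lie above every wild-type sample, while the *AGO2* samples lie lowest for *SPARC*, *VIM* and *TIMP3*.

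Among the enzymes and inhibitors, 7 of 9 genes were tested. In *AGO1/2/3* knockout cells 5 were called higher and 0 lower, beside 20.3% and 19.8% of all genes tested. Lysyl oxidases crosslink collagen and elastin. *LOXL2* (chromosome 8, 23296897 to 23425328) was at 19, 20.9 and 44.4 CPM in wild type, 16.5, 20 and 27.5 with *AGO1* and 19.9, 13.2 and 16.9 with *AGO2* knocked out. The *AGO1/2* samples were at 25.6, 35.8 and 37.3 and the *AGO1/2/3* samples at 122.2, 136 and 137.3. Only the triple knockout samples lay clear of wild type, at a log2 fold change of 2.23 (SE 0.28, adjusted p = 1.56e-05). In the other lines it was -0.40, -0.75 (SE 0.28, adjusted p = 0.0666) and 0.22. Wild-type samples 1 and 3 bore on the calls, since without sample 1 the value in *AGO2* was -0.99 and called lower (adjusted p = 0.0314), and without sample 3 that in *AGO1/2* was 0.70 and called higher (adjusted p = 0.0377).

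*LOXL4*, of the same family, was at 2.19, 3.57 and 2.83 CPM in wild type, 2.93, 3.18 and 3.37 in *AGO1* and 2.53, 1.09 and 1.67 in *AGO2* knockout samples. It was at 8.29, 9.59 and 9.47 in the double and 15.5, 16 and 17.5 in the triple knockout samples. Unlike for *LOXL2*, both combined knockouts lay above the single knockouts and wild type. On the log2 scale the difference from wild type was 1.67 (SE 0.22, adjusted p = 0.000121) in *AGO1/2*, 2.51 (SE 0.22, adjusted p = 4.54e-07) in *AGO1/2/3* and -0.70 (SE 0.24, adjusted p = 0.051) in *AGO2* knockout cells, and 0.14 in *AGO1*. The value in *AGO2* was called lower without *AGO2* sample 1 (-1.09, adjusted p = 0.00758) or wild-type sample 1 (-0.87, adjusted p = 0.0356). *LOX* itself had 2 counts or fewer in every sample.

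The tissue inhibitors of metalloproteinases moved apart from each other. *TIMP1*, the gene with the highest level per length in wild-type cells, was called lower in *AGO2* knockout cells at -0.75 (SE 0.15, adjusted p = 0.00475) and had log2 fold changes of -0.03 and -0.20 in *AGO1/2* and *AGO1/2/3*, neither called. *TIMP2* (chromosome 17, 78852977 to 78925387) was at 88.2, 98.5 and 114.3 CPM in wild type, 54.1, 47.9 and 71.3 in the *AGO1* line and 110.5, 103.8 and 115.4 in the *AGO2* line. In the double knockout it was at 176.8, 210.3 and 210.8, and in *AGO1/2/3* samples 298.7, 308.5 and 334.2. The *AGO1* samples lay below wild type, the *AGO2* samples overlapped it, and the combined knockouts lay above it. Relative to wild type the log2 fold change was -0.80 (SE 0.14, adjusted p = 0.00221) in *AGO1*, 0.99 (SE 0.14, adjusted p = 0.000166) in *AGO1/2*, 1.65 (SE 0.14, adjusted p = 2.94e-07) in *AGO1/2/3* and 0.13 in *AGO2* knockout cells.

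*TIMP3*, which binds to the matrix itself, was at 2.54, 2.87 and 3.59 CPM in wild type, 2.21, 2.38 and 3.77 with *AGO1* and 0.537, 0.255 and 0.38 with *AGO2* knocked out. The *AGO1/2* samples were at 3.52, 5.1 and 5.01 and the *AGO1/2/3* samples at 15.2, 17.1 and 19. The *AGO2* samples lay far below and the *AGO1/2/3* samples far above all others. Its log2 fold change was -2.92 (SE 0.28, adjusted p = 2.16e-05) in *AGO2*, 7.59-fold lower, and 2.51 (SE 0.22, adjusted p = 4.78e-07) in *AGO1/2/3* knockout cells, 5.69-fold higher. *SERPINE2*, an inhibitor of thrombin and plasminogen activators, was at 78.7, 160 and 88.8 CPM in wild type, 57.2, 80.9 and 109 in *AGO1* and 48.2, 58.1 and 52.9 in *AGO2* knockout samples. It was at 150.3, 181 and 180.4 in the double and 193.6, 195.4 and 181.9 in the triple knockout samples. Wild-type sample 2 lay among the *AGO1/2* samples. Against wild type its log2 fold change was -1.04 (SE 0.24, adjusted p = 0.0101) in *AGO2*, 0.64 (SE 0.24, adjusted p = 0.0773) in *AGO1/2* and 0.80 (SE 0.24, adjusted p = 0.0132) in *AGO1/2/3* knockout cells. The *AGO1/2* value was called higher without wild-type sample 2 (1.01, adjusted p = 0.00202), and the *AGO1/2/3* call was lost without wild-type sample 1 (0.59, adjusted p = 0.0706) or sample 3 (0.64, adjusted p = 0.061). *MMP14*, a membrane-bound collagenase, was called lower in *AGO2* at -0.92 (SE 0.19, adjusted p = 0.00609), and *MMP2* had 3 counts or fewer in every sample.

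The mesenchymal markers differed in level. *VIM*, the intermediate filament vimentin (chromosome 10, 17228241 to 17237593), was at 4.54, 3.16 and 4.85 CPM in wild type, 8.96, 10.1 and 5.1 in the *AGO1* line and 2.17, 2.34 and 2.91 in the *AGO2* line. In *AGO1/2* knockout samples it was at 24.6, 21.6 and 25.8, and in *AGO1/2/3* samples 42.7, 49 and 64.8. The *AGO2* samples lay below and the other 3 lines above all wild-type samples. On the log2 scale the difference from wild type was 0.94 (SE 0.24, adjusted p = 0.0219) in *AGO1*, -0.76 (SE 0.25, adjusted p = 0.0438) in *AGO2*, 2.52 (SE 0.24, adjusted p = 3.94e-06) in *AGO1/2* and 3.64 (SE 0.24, adjusted p = 2.51e-08) in *AGO1/2/3* knockout cells, 5.72-fold and 12.4-fold higher in the last 2. The *AGO2* call did not hold under 13 of 23 alternatives, including each fit without 1 of the *AGO2* samples (adjusted p = 0.107, 0.138 and 0.0664). The call in *AGO1* was lost without *AGO1* sample 1 (0.86, adjusted p = 0.0826), *AGO1* sample 2 (0.77, adjusted p = 0.113) or wild-type sample 2 (0.78, adjusted p = 0.079). It was also lost with only the 6 samples compared (0.95, adjusted p = 0.126). Within 5 Mb of *VIM*, 40 other tested genes had a mean of 1 CPM or more over the lines. Their median was 0.54 on the log2 scale in the *AGO1/2/3* line, and its part in the result was not tested. No other gene of the list had a median of such neighbours above 0.29 there.

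*CDH2*, N-cadherin, stayed under 1 CPM on average in every line. It held 10, 16 and 8 counts in wild type, 6, 2 and 8 with *AGO1* and 0, 0 and 2 with *AGO2* knocked out. The *AGO1/2* samples were at 14, 8 and 4 counts and the *AGO1/2/3* samples at 12, 22 and 38. It was called lower in *AGO2* knockout cells (adjusted p = 0.00967), at least 5.01-fold lower at the floor of 3 counts per library. The log2 fold change of 1.11 (SE 0.53, adjusted p = 0.109) in *AGO1/2/3* knockout cells was not called. *AGO1/2/3* sample 1 lay within the wild-type range, and without it the value was 1.52 and called higher (adjusted p = 0.0265). Without *AGO1/2/3* sample 3 it was 0.51 and not called (adjusted p = 0.535).

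The step from *AGO1/2* to *AGO1/2/3* knockout cells was compared directly, since their labels differ by *AGO3*. Of the genes of the list 15 were called higher and 0 lower in *AGO1/2/3* than in *AGO1/2* knockout cells, beside 11.9% and 10.0% of all genes tested. Its samples lay wholly above those of *AGO1/2* for 20 genes and below for 0, beside 22.0% and 19.6%. DESeq2 called 16 higher and 0 lower, beside 2862 higher and 2254 lower of the 23770 genes it tested. At an unadjusted p under 0.05, edgeR gave 19 of the 33 genes in either direction. The share of all genes at that unadjusted p is not given here, so this count describes the list alone. The median log2 difference was 0.65 for the 33 genes and -0.01 for all genes. Of the 18 genes called higher in *AGO1/2/3* knockout cells than in wild type, 12 were also higher than in *AGO1/2*. They included *THBS1* at 2.68 (SE 0.38, adjusted p = 0.000125), *FN1* at 2.31 (SE 0.15, adjusted p = 1.47e-07), *SPARC* at 2.33 (SE 0.38, adjusted p = 0.000436) and *LOXL2* at 2.0 (SE 0.28, adjusted p = 0.000111). The remaining 3 of the 15 were *COL1A1*, *LAMA5* and *COL18A1*, which were not above wild type in *AGO1/2/3* knockout cells. The call of *LAMA5* in this comparison was lost without *AGO1/2* sample 1 (0.71, adjusted p = 0.0747), *AGO1/2* sample 3 (0.84, adjusted p = 0.0518) or *AGO1/2/3* sample 1 (0.71, adjusted p = 0.0758), that of *LAMB1* without *AGO1/2* sample 1 (0.56, adjusted p = 0.0585), and that of *FBN1* without *AGO1/2* sample 2 (0.98, adjusted p = 0.0509). Without *AGO1/2* sample 3, 2 genes were called lower, *COL5A2* at -0.60 and *LAMA3* at -0.68. *HSPG2*, *COL12A1* and *SERPINE2* had values of 0.44, 0.24 and 0.16 in this comparison and were not called.

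The decrease in *AGO2* knockout cells was spread over genes of all levels. Of the genes tested it took 2 of 4 under 1 CPM in wild type, 5 of 10 from 1 to 10 CPM, 7 of 13 from 10 to 100 CPM and 3 of 6 at 100 CPM or more. Among all genes tested, 6.3%, 16.7%, 10.6% and 7.1% were called lower in those ranges of level. *SPARC* and *TIMP3*, at 8.47-fold and 7.59-fold lower, had the largest decreases among genes above 1 CPM in wild type. The lower values include *SPARC* at 11, 2 and 12 counts and *CDH2* at 0, 0 and 2. Since the *AGO2* files differ in their stated quantification mode, mode and genotype cannot be told apart in these decreases.

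A miR-29 seed match of 7 bases was found in the longest annotated 3′-UTR of 16 of the 40 genes, on the sense strand. Such a match was present in 17.1% of the 14640 tested genes with an annotated 3′-UTR. The median length of the 3′-UTR was 1240 bases for the 40 genes and 1505 for the genes tested. By length, the match was in 4 of 13 listed genes with under 1000 bases beside 5.6% of genes tested, in 5 of 15 from 1000 to under 2000 bases beside 14.2%, and in 7 of 12 with 2000 bases or more beside 29.7%. *COL5A1* held 4 matches, *LOX* 3, and *COL3A1* and *COL7A1* 2 each. With an A after the 7 bases there were 9 genes, beside 3.7% of genes tested, and in the MANE Select transcript 19 genes, which added *COL4A1*, *COL6A2* and *FBN1*, beside 16%. Seed matches of other families were in 5 genes for let-7 (CTACCTC, in 12.2% of genes tested), 9 for the miR-200b/c family (CAGTATT, 19.6%), 5 for miR-27 (ACTGTGA, 18.7%) and 5 for miR-21 (ATAAGCT, 10.4%).

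By the longest annotated 3′-UTR, the genes with and without a miR-29 match were called higher in *AGO1/2/3* knockout cells in equal shares. Of the 16 with a match 11 were tested, and 6 were called higher (54.5%), namely *COL3A1*, *LAMC1*, *HSPG2*, *SPARC*, *LOXL2* and *LOXL4*. Of the 24 without a match 22 were tested and 12 were called higher (54.5%). The median log2 fold change was 0.68 with and 0.90 without a match. In the MANE Select transcript *COL4A1*, *COL6A2* and *FBN1* also held a match. Of these *COL6A2* and *FBN1* were called higher and *COL4A1* was not called, so the equal shares depend on the transcript used. *COL6A3* and *COL7A1*, the latter with 2 matches in a 3′-UTR of 333 bases, were called lower, and *COL1A1*, *COL1A2* and *COL5A2*, with 1 match each, had log2 fold changes of 0.09, -0.05 and -0.29. In *AGO2* knockout cells 6 of 11 genes with a match and 11 of 22 without were called lower. Over the 14640 tested genes with an annotated 3′-UTR, 35.7% with a match and 25.1% without were called higher in *AGO1/2/3* knockout cells. The medians were 0.14 and 0.02. For matches of the let-7, miR-200b/c, miR-27 and miR-21 seeds the share called higher was 33.5% to 37.5% with and 24.3% to 25.9% without a match, so that a like difference was seen for all 5 families. Since a miR-29 match was more frequent in longer 3′-UTRs, as given above, length moves with these shares, and its part was not tested. Of 14 listed genes taken from knowledge of the family as reported miR-29 targets, 10 were tested. In *AGO1/2/3* knockout cells 5 were called higher (50.0%) and 1 lower (10.0%), beside 20.3% and 19.8% of all genes tested. Of 18 such targets outside the matrix, 9 were called higher (50.0%) and 2 lower (11.1%). They included *CDK6* at 2.48, *TET1* at 1.78, *VEGFA* at -1.87 and *DNMT3B* at -0.72. Without wild-type sample 2 *VEGFA* was at -1.27 and still called.

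Other genes of the matrix were taken from further lists to set the 40 genes in their pathway. Of 55 other structural genes 43 were tested. In *AGO1/2/3* knockout cells 13 were called higher (30.2%) and 11 lower (25.6%), with a median log2 fold change of -0.13. Among all genes tested 20.3% were called higher and 19.8% lower in that line. The largest increases were those of *COL13A1*, a transmembrane collagen, at 4.25 (11.9 to 226.7 CPM on average), *ECM1* at 4.16 and *COL15A1* at 3.71, and the largest decreases those of *COL11A2* at -2.21, *EFEMP2* at -1.87 and *LTBP1* at -1.80. Of the 43, 23 were called lower (53.5%) and 0 higher in *AGO2* knockout cells, beside 10.8% and 8.55% of all genes tested. Their median there was -0.75. The unadjusted p of edgeR's test was under 0.05 for 30 genes in either direction, a count without a share of all genes beside it. The collagen folding, processing and secretion genes, 26 of 27 tested, had 14 called higher (53.8%) and 5 lower (19.2%) in *AGO1/2/3* knockout cells. They included *ADAMTS2*, a procollagen peptidase, at 2.44, *ADAMTS14* at 1.66 and *P4HA3* at 1.57. On the lower side were *P4HA1*, a prolyl hydroxylase, at -1.05, *FKBP10* at -0.99 and *PCOLCE2* at -0.76. The value of *P4HA1* was -0.12 and not called without wild-type sample 3 (adjusted p = 0.683). In *AGO2* knockout cells 3 of the 26 genes were called lower (11.5%) and 1 higher (3.8%).

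Of 36 other remodelling enzymes and inhibitors 27 were tested. In *AGO1/2/3* knockout cells 10 were called higher (37.0%) and 4 lower (14.8%), beside 20.3% and 19.8% of all genes tested. They included the transglutaminase *TGM2* at 2.17, the plasminogen activator *PLAT* at 1.87 and *RECK* at 1.58, and on the lower side the urokinase receptor *PLAUR* at -0.80, *LOXL3* at -0.62 and *LOXL1* at -0.49. The call of *LOXL3* was lost without wild-type sample 1 (-0.46, adjusted p = 0.108) or *AGO1/2/3* sample 3 (-0.55, adjusted p = 0.0804). Other mesenchymal markers, 12 of 19 tested, had 3 called higher (25.0%) and 1 lower (8.3%) there. The former were *FSTL1* at 2.26, *NT5E* at 2.09 and *S100A4* at 0.73, and the latter *CD44* at -0.78. Without wild-type sample 2 *NT5E* was at 2.85. The call of *S100A4* was lost without wild-type sample 2 (0.46, adjusted p = 0.0972), *AGO1/2/3* sample 1 (0.64, adjusted p = 0.077) or *AGO1/2/3* sample 3 (0.73, adjusted p = 0.052).

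Markers of other cell states were measured in the same samples. Of 12 epithelial markers 10 were tested. In *AGO1/2/3* knockout cells 5 were called lower (50.0%), 1 higher (10.0%) and 4 not called, beside 19.8% lower and 20.3% higher among all genes tested. Over the 10 the log2 fold changes ran from -3.51 to 0.41, with a median of -0.46. E-cadherin, *CDH1*, was at 84.5, 134.1 and 74.6 CPM in wild-type and 8.73, 9.21 and 7.76 in *AGO1/2/3* knockout samples, a log2 fold change of -3.51. *CLDN7* was at -3.29, *ESRP1* at -3.17 and *EPCAM* at -1.74. The summed level of the 12 markers was 2140 to 2456 CPM in wild-type and 1778 to 2254 in *AGO1/2/3* knockout samples. In the *AGO1/2* line that sum was 2389 to 2809 CPM. There 4 of the 10 were called lower and 2 higher, beside 8.35% and 8.37% of all genes tested. *CDH1* was also called lower in the *AGO1* line at -1.15 and in the *AGO1/2* line at -1.66, the former not with only the 6 samples compared (adjusted p = 0.0741). Of the 10 markers, 4 were called lower and 0 higher in the *AGO1* line, beside 5.5% and 3.17% of all genes tested. In *AGO2* knockout cells 1 was called lower and 1 higher, beside 10.8% and 8.55%. The log2 fold changes of the 10 ran from -0.68 to 0.32 there. The marker called higher was *EPCAM* at 0.32, and *CDH1* was at -0.55 and not called (adjusted p = 0.106). The summed level of 10 fibroblast markers was 1.05 to 2.17 CPM in all samples, with 1.91 to 1.97 in *AGO1/2/3* knockout samples and 1.78 to 2.07 in wild type. That of 7 endothelial markers was 3.46 to 3.96 CPM in *AGO1/2/3* knockout and 3.76 to 4.14 in wild-type samples. That of 6 leukocyte markers was 8.19 to 9.56 CPM in *AGO1/2/3* knockout and 1.48 to 1.91 in wild-type samples, of which *LYZ*, called higher at 5.87, made 7.51 CPM on average, and the part of these changes in the matrix genes was not tested.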

How the data were processed

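RNAseq of 15 HCT116 samples (3 each of wild type and 4 *AGO* knockout lines) was analysed. The 8 eCLIP samples were not analysed here. The authors deposited expected counts per gene, estimated by Salmon from reads aligned to hg38, with replicates kept apart. The submitters' notes name STAR 2.5.3a, Salmon 0.11.0 and DESeq2, and the column headers differ in the quantification mode they give for the *AGO2* line. The expected counts, of which 30.8% to 33.8% per sample were not whole, were rounded. Groups were taken from the labels. The replicate numbers do not pair the samples, and the study describes the replicates as biological ones of each line, so p-values measure the spread between samples of 1 line, not between separately edited lines.

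Genes passing filterByExpr (22842) were tested with edgeR 4.0.16 (R 4.3.3) by the quasi-likelihood test, with TMM scaling and 1 fit over all 15 samples. P-values were adjusted by Benjamini-Hochberg over all genes tested, and 0.05 was the threshold. Values are counts per 1000000 (CPM) of TMM-scaled library sizes, and SE is the standard error of the log2 fold change. Levels of different genes were compared per kb of annotated exon (GENCODE v44). A library with 3 counts or fewer was taken as at the floor, and folds against it are lower bounds. On simulated data for *AGO1/2/3* against wild type (22370 genes), 180 of 200 changed genes were recovered with 8 false calls. The changed genes had a mean above 1 CPM and changes of at least 2-fold, with counts drawn from the fitted means and spread. Recovery of smaller changes or of genes at lower levels was not tested.

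Seed matches were counted on the sense strand in the longest annotated 3′-UTR of each gene. Mature miRNAs were those of RefSeq (GRCh38.p14), and the printed sites were identical to hg38 in 27 of 27 cases read.

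The 40 genes and the other lists were chosen with earlier results of these data known, and no list gives independent support. Genes given with every sample were those called with a log2 fold change of 1 or more in size in at least 1 line and a mean of 1 CPM or more in a line, plus *FN1*, *VIM*, *CDH2*, *SPARC*, *COL4A1*, *COL4A2* and *LAMC1*. From other lists the 3 called genes with the largest changes in each direction were named, except 1 that is not reported here. Alternatives were other scalings, filters, DESeq2 1.42.0, a replicate block, only the samples compared, a 2-fold threshold, each sample left out in turn and, added after seeing the data, a fit without the *AGO2* line and the MANE Select 3′-UTR. CPM of low genes rest on few counts, and ranges cover sampling as well as library differences.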

Additional observations from a re-analysis of the deposited data

Results flagged for a closer look

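The 8 genes called lower in *AGO2* and higher in *AGO1/2/3* knockout cells were compared directly between these lines, in the same edgeR fit, because their changes had opposite signs. All 8 were higher in *AGO1/2/3* than in *AGO2* knockout cells. This follows from how the 8 were picked and is no further result, so only the sizes are of use. The share of 21.3% called higher among all genes tested is of genes not picked in this way. The log2 difference was 8.03 for *SPARC*, 5.43 for *TIMP3*, 4.4 for *VIM*, 4.28 for *TGFBI*, 2.9 for *HSPG2*, 1.84 for *SERPINE2*, 1.82 for *LAMB1* and 1.2 for *COL6A2*. The 2 lines also differ in the quantification mode that their file headers name, and its part cannot be told apart.

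The change from wild type differed between the double and the triple knockout line for 15 genes by the direct test. The log2 difference was 2.72 for *COL3A1*, 2.68 for *THBS1*, 2.33 for *SPARC*, 2.31 for *FN1*, 2.0 for *LOXL2*, 1.91 for *TIMP3*, 1.12 for *COL1A1*, 1.12 for *VIM* and 1.09 for *FBN1*. It was 0.88 for *LAMC1*, 0.84 for *LAMA5*, 0.84 for *LOXL4*, 0.71 for *COL18A1*, 0.70 for *LAMB1* and 0.65 for *TIMP2*. The value for *COL3A1* is a fitted value against samples at 3 counts or fewer, where the bound was at least 4.56-fold.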

How the results depend on the processing

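Over 165 log2 fold changes of the listed genes, 3889 values were computed under 24 alternatives. Of these 3705 kept their direction and side of the threshold, 109 lost a call, 75 gained one and 0 changed sign with a call. Under the 2-fold threshold the genes called higher in *AGO1* went from 3 to 1 and lower from 6 to 2, those lower in *AGO1/2* from 5 to 3, and those higher in *AGO1/2/3* than in *AGO1/2* from 15 to 9. The 6 lower in *AGO1* became 10 with no filter on low counts and 2 with only the 6 samples compared. With 1 sample left out, the genes called higher and lower numbered 2 to 3 and 4 to 8 in *AGO1*, 0 to 1 and 12 to 20 in *AGO2*, 6 to 9 and 3 to 5 in *AGO1/2*, 15 to 18 and 1 to 4 in *AGO1/2/3*, and 13 to 16 and 0 to 2 between *AGO1/2/3* and *AGO1/2*. The 1 higher in *AGO2* became 0 without *AGO2* sample 2 or wild-type sample 2. The 5 lower in *AGO1/2* became 3 without *AGO1/2* sample 1, *AGO1/2* sample 3 or wild-type sample 2. The 3 lower in *AGO1/2/3* became 1 without *AGO1/2/3* sample 3. The 16 genes with a miR-29 match became 9 with a following A. The cause of these differences was not tested.

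With a replicate block the genes called higher and lower were 3 and 6 in *AGO1*, 1 and 15 in *AGO2*, 8 and 5 in *AGO1/2*, 18 and 3 in *AGO1/2/3*, and 15 and 0 between *AGO1/2/3* and *AGO1/2*, with 2 calls lost (*VIM* and *COL5A2* in *AGO2*) and 1 gained (*SERPINE2* in *AGO1/2*, 0.68, adjusted p = 0.041). Samples sharing a number deviated together at a mean r of -0.0114 over 30 pairs. Scaling by total counts moved the median of all genes to between -0.15 and -0.06 on the log2 scale. Genes with a few counts per sample, such as *COL4A2* and *NID1*, are limited by depth.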
